A study of Homo sapiens with 6 samples.

Results

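Matrix metalloproteinases (MMP), ADAM and ADAMTS proteases and their tissue inhibitors (TIMP) were followed by RNA sequencing in the human glioma line U251, an established cell line. All gene symbols made of MMP, ADAM, ADAMTS or TIMP and a number (with A or B after it where present) were taken, which gave 58 of the 16832 genes listed: 18 MMP, 17 ADAM, 19 ADAMTS and 4 TIMP genes. The 3 SLCDS libraries came from cells given the small-molecule mixture of that name, not broken down in the labels, over 18 days. The 3 control libraries came from cells given PBS without the mixture. Both groups are labelled as wild type cells of this single line, and no culture time is given for the control. Nothing in the labels says that the libraries of a group came from separate cultures, so the p-values measure the spread between these libraries, which may be technical.

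MMPs are zinc-dependent proteases that are made as inactive proforms and cut collagens, laminins and other matrix and surface proteins. ADAMs are membrane-bound and release the outer parts of other membrane proteins, such as Notch receptors and growth factor precursors, while ADAMTS proteases are secreted, lack the membrane anchor and include the proteases that cut proteoglycans of the brain matrix and those that trim procollagens. TIMPs bind the active site of many of these enzymes, and the balance between the proteases and TIMPs is studied in glioma because it bears on invasion through brain tissue. RNA levels do not show how much of an enzyme is active.

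Levels are given in FPKM, which divides fragments by transcript length and by library depth and is meant to allow genes to be set side by side. Control replicate 3 still departed from the other controls along transcript length and GC content, as described below. Its FPKM over all genes summed to 348904, against 295203 to 310281 in the other libraries. The steps between low values correspond to about 16300000 to 17200000 fragments per library, and a transcript of 2000 nucleotides at 1 FPKM then rests on 32.6 to 34.4 of them. Control replicate 3 stood apart: its Pearson correlation over the tested genes was 0.9765 and 0.9767 with the other controls, against 0.9969 between those controls and 0.9966 to 0.997 among the SLCDS libraries. All 8 astroglial glioma markers were over the expression threshold, with a summed level of 2474 to 2558 FPKM in SLCDS and 2537 to 2958 FPKM in control. Most of that sum is VIM, and the marker of the 8 that passed was GFAP, the astrocyte filament gene, which was lower at 127 to 141 FPKM in SLCDS and 312 to 354 FPKM in control (log2 fold change -1.32; limma, adjusted p = 0.000596). The others differed in direction without passing. NES and CD44 lay above control in every SLCDS library, while SOX2, SLC1A3 and FABP7 lay below. Without control replicate 3 NES, CD44 and S100B were higher (limma, adjusted p = 0.00539, 0.0184 and 0.0105). SOX2, SLC1A3 and FABP7 were then lower (limma, adjusted p = 0.00919, 9.38e-05 and 0.0172). For 7 neuronal markers, of which 3 could be tested and none passed, the sum was 51.3 to 52.5 FPKM in SLCDS and 63.4 to 63.9 FPKM in control (the title calls the treated cells neuronal-like). Its members differed in direction: TUBB3 stood at 28.7 to 30.8 FPKM in SLCDS and 36.0 to 45.3 FPKM in control, while SNAP25 stood at 5.95 to 6.44 FPKM in SLCDS and 4.46 to 5.53 FPKM in control. MAP2 stood at 14.2 to 15.2 FPKM in SLCDS and at 21.0, 21.4 and 13.2 FPKM in control (log2 fold change -0.28; limma, adjusted p = 0.458). Without control replicate 3 MAP2 and TUBB3 were lower and SNAP25 was higher (limma, adjusted p = 5.99e-05, 0.00109 and 0.0326). Below the threshold, SYN1 stood at 0.796 to 0.998 FPKM in SLCDS and 0.459 to 0.613 FPKM in control, and STMN2 at 0.0590 to 0.180 FPKM in SLCDS and 0 in control. Summed markers were 4.81 to 6.10 FPKM in SLCDS and 4.25 to 4.80 FPKM in control for 7 microglial and macrophage genes, with PTPRC at no more than 0.0276 FPKM in SLCDS and 0.0485 FPKM in control. Most of that sum is CD68, at 3.44 to 4.71 FPKM in SLCDS and 2.66 to 2.85 FPKM in control (limma, adjusted p = 0.0737). Without control replicate 3 CD68 was higher (limma, adjusted p = 0.0176). CD14, the other tested gene of that list, lay below control in every SLCDS library and did not pass (limma, adjusted p = 0.366). For 6 endothelial genes the summed markers were 4.96 to 5.88 FPKM in SLCDS and 2.12 to 3.00 FPKM in control. They came mostly from CDH5, which was higher in SLCDS (log2 fold change 1.02; limma, adjusted p = 0.0106). PECAM1 was at no more than 0.104 FPKM in SLCDS and 0.0839 FPKM in control. For 7 fibroblast and pericyte genes they were 371 to 379 FPKM in SLCDS and 365 to 398 FPKM in control, nearly all from COL1A2, while DCN was at no more than 0.0344 FPKM in SLCDS and 0.0175 FPKM in control. PDGFRB and ACTA2 of that last list were higher in SLCDS (log2 fold changes 1.03 and 1.27; limma, adjusted p = 0.000696 and 0.00138), and PDGFRB was tested only because of its SLCDS libraries. COL1A2 did not pass (log2 fold change -0.04; limma, adjusted p = 0.871). Of the untested members, COL1A1 was lower in every SLCDS library, at 0.462 to 0.663 FPKM in SLCDS and 0.881 to 1.16 FPKM in control. COL3A1 and LUM lay above control in every SLCDS library, at no more than 0.319 FPKM. The part of these markers in the results below was not tested.

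Of the 58 genes, 32 reached 1 FPKM in no fewer than 3 libraries and were tested, as rows of a limma fit to log2(FPKM + 1) of all 11506 genes over this threshold. At an adjusted p under 0.05, 5 were higher and 3 lower in SLCDS. The 5 were the gelatinase gene MMP2, MMP19, the proteoglycanase gene ADAMTS1, the procollagen N-propeptidase gene ADAMTS14 and the inhibitor gene TIMP3, and the 3 were the membrane-type gene MMP15 and the proteoglycanase genes ADAMTS9 and ADAMTS15. These 8 are 25% of the 32, where 6.09% of all tested genes passed (4.28% higher, 1.82% lower). The families were chosen with earlier results of these data known, so these shares are a description and no test. TIMP3, ADAMTS14 and MMP19 were tested only because of their SLCDS libraries, so the 25% is raised by the threshold itself, and without these 3 genes 5 of 29 passed. The 6.09% was not trimmed in this way, so it is not the matching share for the 5 of 29. With no threshold on level, 7 of the 58 passed (12.1%) against 4.95% of 16832 genes (3.71% higher, 1.24% lower), and the gene then lost was ADAMTS9 (limma, adjusted p = 0.0534). The median log2 fold change was 0.03 over the 32 genes and 0.00036 over all tested genes.

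Among the libraries left out 1 at a time, control replicate 3 changed the number of genes that passed the most. Without it 9 of the 32 were higher and 9 lower, 56.3% against 27.7% of all tested genes (16.0% higher, 11.8% lower), and these included the 8. Leaving out any other single library gave 3 or 4 higher and 2 lower. The calls of MMP2, MMP15 and ADAMTS15 held in all 18 alternative settings and those of TIMP3 and ADAMTS14 in all 17 in which they could be fitted. ADAMTS1 passed in 12 of 17, MMP19 in 11 of 17 and ADAMTS9 in 8 of 18. The FPKM ranges of SLCDS and control did not overlap for 12 of the 32 genes (37.5%), which are the 8 with ADAM10, ADAM23, TIMP2 and TIMP4, where 29.1% of all tested genes had ranges that did not overlap. For 7 of the 12 all SLCDS libraries lay above all controls and for 5 below, against 15.5% and 13.6% of all tested genes. TIMP3, ADAMTS14 and MMP19 are among the 7, and the threshold itself fixed that their ranges would not overlap. All their SLCDS libraries reached 1 FPKM and none of their controls did. How many such genes the shares over all tested genes hold was not counted.

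**Figure D1:**
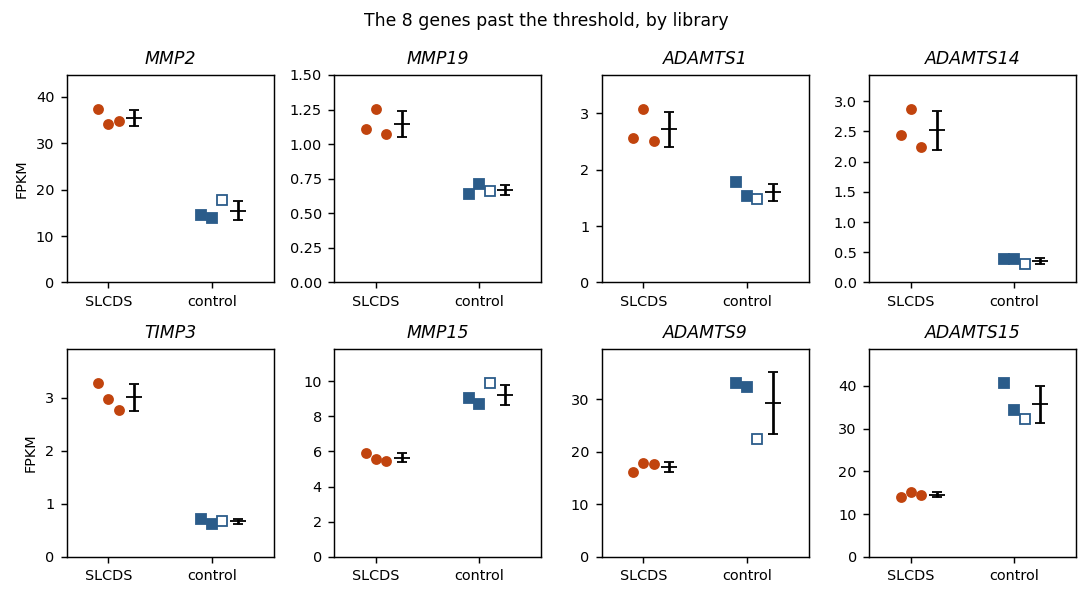
FPKM of the 8 genes past the threshold in each library, on axes that start at 0, with SLCDS (red circles) left of control (blue squares, control replicate 3 open); the bar beside each group is the mean and SD of its 3 libraries. The groups do not overlap for any of the 8, and the gap, as a ratio, is narrowest for ADAMTS9, where control replicate 3 lies at 22.4 FPKM. For TIMP3, ADAMTS14 and MMP19 the threshold for testing fixed that the groups lie apart.

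The gelatinase MMP2 cuts denatured collagen and type IV collagen of basement membranes. It stood at 37.4, 34.2 and 34.8 FPKM in the SLCDS libraries and at 14.6, 13.98 and 17.9 FPKM in the control libraries. All SLCDS libraries lay above all controls, and the mean was 35.5 ± 1.68 FPKM in SLCDS and 15.5 ± 2.09 FPKM in control (SD, n = 3 each), a ratio of 2.29 (log2 fold change 1.15, SE 0.10; limma, adjusted p = 0.00116). MMP9, the other gelatinase, was listed at 0 to 0.0517 FPKM in SLCDS and at 0 to 0.151 FPKM in control, so that nearly all gelatinase RNA was that of MMP2. MMP19, a secreted MMP outside the classical groups, stood at 1.11, 1.25 and 1.07 FPKM in SLCDS and at 0.636, 0.710 and 0.664 FPKM in control. Its groups did not overlap, which the threshold for testing fixed for this gene, and the log2 fold change was 0.36 (SE 0.07; limma, adjusted p = 0.0322). Leaving out any single library other than control replicate 3 ended the call of MMP19, at 0.0856 to 0.162 (limma, adjusted p). In the annotation 17.4% of its exon bases lie opposite exons of TMEM198B, and whether the counting used strand is not given in the sources used here.

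Membrane-type MMPs act at the cell surface, and MMP14 among them is the main activator of the MMP2 proform, in a complex with TIMP2. MMP14 was the most abundant MMP, at 94.1, 86.7 and 91.3 FPKM in SLCDS and at 77.9, 77.1 and 94.5 FPKM in control. Control replicate 3 lay above every SLCDS library and the other controls below them, and the gene did not pass (log2 fold change 0.13, 95% interval -0.10 to 0.36; limma, adjusted p = 0.563). Without control replicate 3 MMP14 was higher in SLCDS, with a log2 fold change of 0.22 (limma, adjusted p = 0.00408). MMP15, a second transmembrane enzyme, went the other way, with 5.93, 5.59 and 5.44 FPKM in SLCDS and 9.05, 8.72 and 9.87 FPKM in control. Its groups did not overlap, and it fell by 0.62 on the log2 scale (SE 0.08; limma, adjusted p = 0.00456). MMP17, which is held by a lipid anchor, stood at 5.58 to 6.12 FPKM in SLCDS and at 4.59, 4.67 and 6.40 FPKM in control (log2 fold change 0.15; limma, adjusted p = 0.582). MMP16 stood at 3.85 to 4.57 FPKM in SLCDS and at 4.78, 4.66 and 2.23 FPKM in control (log2 fold change 0.11; limma, adjusted p = 0.841). Control replicate 3 was the highest library for MMP17 and the lowest for MMP16. Without it MMP17 was higher (log2 fold change 0.28; limma, adjusted p = 0.00942), and MMP16 had a log2 fold change of -0.16 (limma, adjusted p = 0.153).

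TIMP3 is bound to the matrix and inhibits several ADAM and ADAMTS proteases besides MMPs. It had the second largest log2 fold change of the 32 genes, at 3.27, 2.98 and 2.78 FPKM in SLCDS and 0.708, 0.615 and 0.680 FPKM in control. The means were 3.01 ± 0.249 FPKM in SLCDS and 0.668 ± 0.0474 FPKM in control (SD, n = 3 each), a ratio of 4.51 (log2 fold change 1.26, SE 0.08; limma, adjusted p = 0.000435). Control replicate 3 lay between the other controls for this gene. TIMP3 lies inside SYN3 on the opposite strand with no shared exon bases, and SYN3 was listed at no more than 0.00568 FPKM in any library. Even in SLCDS TIMP3 was a small part of the inhibitor RNA, since TIMP1 and TIMP2 held 96.7% to 96.9% of the summed TIMP FPKM in SLCDS and 96.4% to 97.6% in control.

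TIMP1, a broad secreted inhibitor, had the highest mean FPKM of the 58 genes. It stood at 161, 167 and 167 FPKM in SLCDS and at 122, 133 and 209 FPKM in control. The control libraries lay on both sides of SLCDS, and the log2 fold change of 0.13 did not pass (95% interval -0.32 to 0.58; limma, adjusted p = 0.779). Without control replicate 3 TIMP1 was higher in SLCDS (log2 fold change 0.37; limma, adjusted p = 0.000256), and without control replicate 1 its log2 fold change was -0.02 (limma, adjusted p = 0.966). TIMP2, which both inhibits MMP2 and takes part in its activation, stood at 109, 113 and 112 FPKM in SLCDS and at 132, 122 and 119 FPKM in control. TIMP4, known mostly from heart and brain, stood at 5.33, 6.63 and 6.24 FPKM in SLCDS and at 8.74, 7.31 and 7.46 FPKM in control. Both lay below control in every SLCDS library without passing, at log2 fold changes of -0.16 (limma, adjusted p = 0.334) and -0.32 (limma, adjusted p = 0.146). Without control replicate 3 both passed as lower, with limma adjusted p values of 0.0109 for TIMP2 and 0.0193 for TIMP4. The annotation places 10.3% of the TIMP4 exon bases opposite exons of SYN2.

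**Figure D2:**
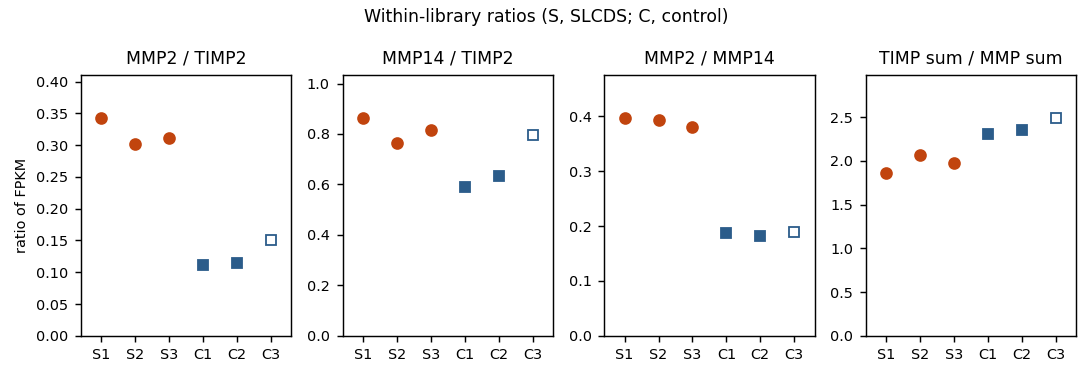
Ratios of FPKM within each library, on axes that start at 0, with SLCDS libraries (S1 to S3, red circles) left of control libraries (C1 to C3, blue squares, C3 open). MMP2 over TIMP2 and MMP2 over MMP14 are higher in every SLCDS library than in any control, the TIMP sum over the MMP sum is lower, and MMP14 over TIMP2 overlaps through control replicate 3.

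Ratios within a library are free of its depth scaling and were computed as a description. MMP2 over TIMP2 was 0.343, 0.302 and 0.312 in SLCDS and 0.111, 0.115 and 0.151 in control. MMP2 over MMP14, its activator, was 0.397, 0.394 and 0.382 in SLCDS and 0.188, 0.181 and 0.189 in control. In the control libraries this ratio hardly moved between replicate 3 and the others, although both genes were higher in replicate 3. MMP14 over TIMP2 was 0.863, 0.764 and 0.816 in SLCDS and 0.589, 0.632 and 0.797 in control, so that it overlapped. The summed FPKM of all 4 TIMP genes over that of all 18 MMP genes was 1.86, 2.07 and 1.98 in SLCDS and 2.31, 2.35 and 2.49 in control. MMP14 and MMP2 held 86.2% to 87.7% of the MMP sum in SLCDS and 81.2% to 83.3% in control, so this ratio rests on few genes.

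ADAMTS15, ADAMTS9, ADAMTS1 and ADAMTS4 belong to the proteases that cut proteoglycans such as versican and aggrecan, and they did not move together. ADAMTS15 stood at 13.99, 15.1 and 14.5 FPKM in SLCDS and at 40.5, 34.4 and 32.1 FPKM in control. Every SLCDS library lay under every control, with means of 14.5 ± 0.538 FPKM in SLCDS and 35.7 ± 4.35 FPKM in control (SD, n = 3 each), a ratio of 0.407 (log2 fold change -1.23, SE 0.10; limma, adjusted p = 0.00074). ADAMTS9 stood at 16.1, 17.8 and 17.6 FPKM in SLCDS and at 33.0, 32.4 and 22.4 FPKM in control. It fell by 0.72 on the log2 scale (SE 0.15; limma, adjusted p = 0.0338). Control replicate 3 was the control nearest to SLCDS, and without it the log2 fold change of ADAMTS9 was -0.89 (limma, adjusted p = 2.65e-06). Leaving out any of the other 5 libraries ended the call of ADAMTS9, at 0.103 to 0.167 (limma, adjusted p). ADAMTS1 was the riser of this group, at 2.57, 3.08 and 2.51 FPKM in SLCDS and 1.78, 1.54 and 1.48 FPKM in control (log2 fold change 0.51, SE 0.09; limma, adjusted p = 0.0204). Its groups did not overlap. Leaving out SLCDS replicate 1, 2 or 3 or control replicate 2 ended the call of ADAMTS1, at 0.067 to 0.0962 (limma, adjusted p). ADAMTS4 stood at 2.14 to 2.43 FPKM in SLCDS and 1.91 to 2.31 FPKM in control (log2 fold change 0.09, 95% interval -0.11 to 0.30; limma, adjusted p = 0.647). The order of these genes by FPKM changed with the groups: ADAMTS9 over ADAMTS15 was 1.15 to 1.21 in SLCDS and 0.699 to 0.942 in control. ADAMTS15 and ADAMTS9 held 53.4% to 54.0% of the summed ADAMTS FPKM in SLCDS and 70.3% to 73.7% in control.

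ADAMTS14 removes the amino-terminal propeptide of fibrillar procollagens. It had the largest log2 fold change of the 32 genes, at 2.43, 2.87 and 2.25 FPKM in SLCDS and 0.391, 0.382 and 0.301 FPKM in control. The means were 2.52 ± 0.319 FPKM in SLCDS and 0.358 ± 0.0498 FPKM in control (SD, n = 3 each), a ratio of 7.03 (log2 fold change 1.37, SE 0.09; limma, adjusted p = 0.000462). On the log2(FPKM + 1) scale the change of so low a gene is understated, and with a pseudocount of 0.1 the log2 fold change was 2.51. The related propeptidases were lower in level: ADAMTS3 stood at 0.639 to 0.897 FPKM in SLCDS and 0.638 to 1.13 FPKM in control, and ADAMTS2 was at 0 in SLCDS and no more than 0.0161 FPKM in control. The remaining 5 tested ADAMTS genes, ADAMTS6, ADAMTS7, ADAMTS10, ADAMTS12 and ADAMTS13 (the protease of von Willebrand factor), had overlapping groups, log2 fold changes of -0.11 to 0.10 and limma adjusted p values of 0.577 to 0.987. ADAMTS7 has 3 annotated pseudogene copies, among which its fragments could be split.

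Upstream sequences are shown for ADAMTS14, TIMP3 and MMP15, the genes past the threshold that had an entry among the RefSeq promoter sequences used (GRCh38.p14; 19 of the 32 tested genes had one), because 2 of them rose and the third fell. Each is the 250 bases before the annotated start of the gene on the plus strand, 5′ to 3′: chr10:70672256-70672505 for ADAMTS14, chr22:32801455-32801704 for TIMP3 and chr16:58025504-58025753 for MMP15. Capitals mark GC boxes (GGGCGG or its complement CCGCCC) and CCAAT boxes (CCAAT or its complement ATTGG).
ADAMTS14: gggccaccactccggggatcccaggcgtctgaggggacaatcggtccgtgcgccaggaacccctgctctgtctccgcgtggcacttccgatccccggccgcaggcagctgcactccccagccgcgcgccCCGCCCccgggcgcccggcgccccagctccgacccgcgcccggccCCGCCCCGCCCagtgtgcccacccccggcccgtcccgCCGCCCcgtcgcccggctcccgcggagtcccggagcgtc
TIMP3: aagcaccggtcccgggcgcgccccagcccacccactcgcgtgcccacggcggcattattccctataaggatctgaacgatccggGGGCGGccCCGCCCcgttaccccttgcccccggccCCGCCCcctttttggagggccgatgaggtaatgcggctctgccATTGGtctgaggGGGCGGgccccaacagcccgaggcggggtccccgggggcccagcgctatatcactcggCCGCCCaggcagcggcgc
MMP15: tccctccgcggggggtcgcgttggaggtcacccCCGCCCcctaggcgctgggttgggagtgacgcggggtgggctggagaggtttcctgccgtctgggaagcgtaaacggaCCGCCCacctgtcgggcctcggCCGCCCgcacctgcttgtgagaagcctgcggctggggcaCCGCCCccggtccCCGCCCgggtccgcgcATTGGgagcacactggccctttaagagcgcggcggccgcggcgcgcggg

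All 3 windows are rich in G and C, at 80.4% for ADAMTS14, 72.4% for TIMP3 and 74.8% for MMP15, where the median was 73.6% over the 19 genes and 63.6% over 13275 genes of the files. ADAMTS14 holds 4 GC boxes, TIMP3 holds 5 and MMP15 holds 5, with both strands searched, and TIMP3 and MMP15 each hold a CCAAT box. A GC box was found in 17 of the 19 genes and in 61.5% of all 13275 windows, and a CCAAT box in 6 of the 19 and in 34.5% of all. None of the 3 windows holds the AP-1 letters TGANTCA, the TATA letters TATAAA or the CRE letters TGACGTCA, which 4.53%, 7.06% and 2.51% of all windows hold. ADAMTS14 holds no CCAAT box, so none of the 5 motifs searched is held by both genes that rose and lacked by MMP15.

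**Figure D3:**
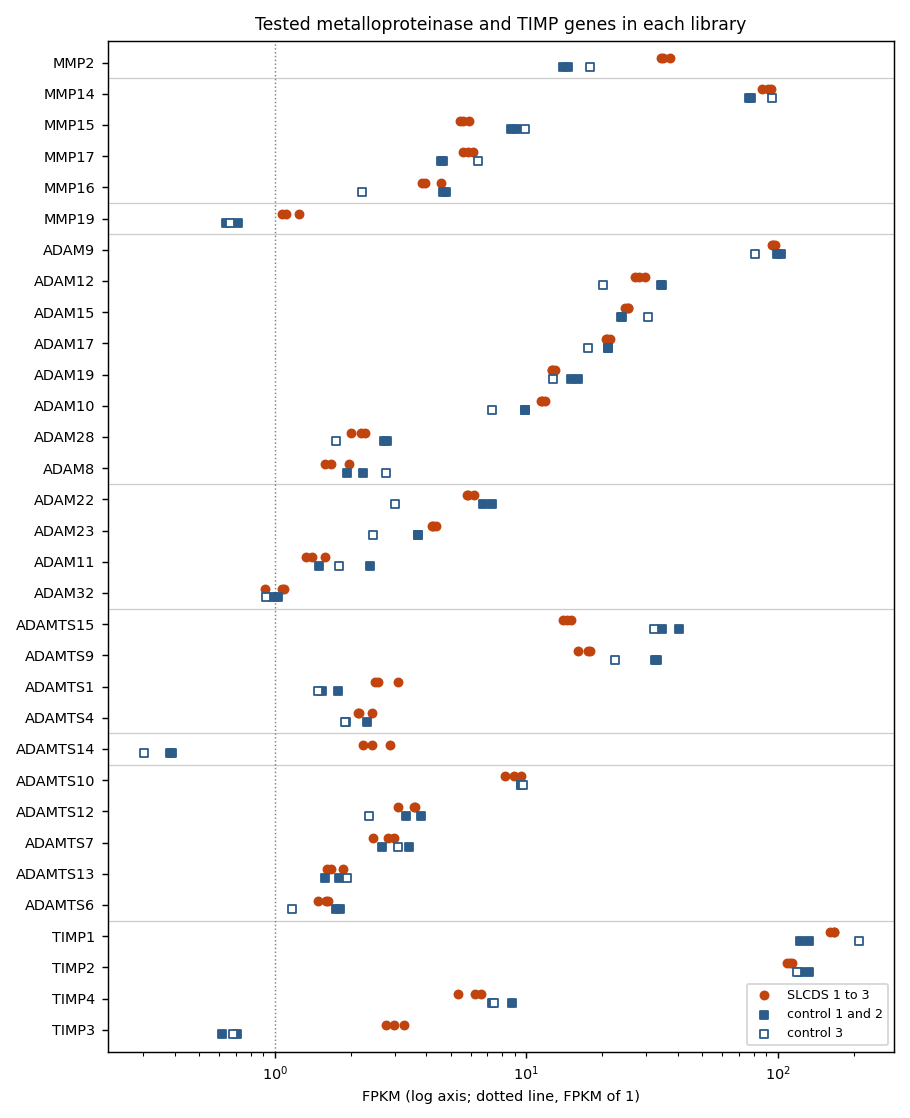
FPKM of the 32 tested genes in each library on a log axis, grouped by role from gelatinases at the top to TIMPs at the bottom, with SLCDS libraries (red circles) above control libraries (blue squares, control replicate 3 open). TIMP1, TIMP2, ADAM9 and MMP14 lie near 100 FPKM, and control replicate 3 departs from the other controls for genes such as ADAM22, MMP16, ADAM12 and TIMP1.

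No ADAM gene passed, in either direction, among 12 tested with limma, and ADAM8, ADAM10 and ADAM23 had an unadjusted p under 0.05. ADAM9, a widely expressed sheddase, was the most abundant protease gene of all 3 families by mean FPKM, at 95.3, 97.0 and 94.3 FPKM in SLCDS and 103, 99.4 and 81.2 FPKM in control (log2 fold change 0.02, 95% interval -0.22 to 0.26; limma, adjusted p = 0.934). ADAM9 and MMP14 held 44.4% to 45.5% of the summed protease FPKM in SLCDS and 41.1% to 44.5% in control. ADAM10 and ADAM17 are the sheddases of Notch receptors and of the precursors of TNF and EGF family ligands. ADAM10 stood at 11.4, 11.8 and 11.5 FPKM in SLCDS and at 9.84, 9.87 and 7.30 FPKM in control, with groups that did not overlap (log2 fold change 0.34, 95% interval 0.07 to 0.61; limma, adjusted p = 0.169). ADAM17 stood at 20.6 to 21.5 FPKM in SLCDS and at 17.6 to 21.2 FPKM in control, with groups that overlapped (log2 fold change 0.08, 95% interval -0.13 to 0.28; limma, adjusted p = 0.714). In the annotation 12.3% of ADAM17 exon bases lie opposite exons of IAH1. The ratio of ADAM10 to ADAM17 was 0.530, 0.572 and 0.547 in SLCDS and 0.465, 0.468 and 0.414 in control. Without control replicate 3 ADAM10 was higher in SLCDS (log2 fold change 0.21; limma, adjusted p = 0.0134).

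Among the other ADAM genes with the catalytic zinc site, ADAM12 stood at 27.0, 29.5 and 27.95 FPKM in SLCDS and at 34.7, 34.3 and 20.2 FPKM in control. ADAM19, which is known to cut neuregulin precursors, stood at 12.6, 12.7 and 13.0 FPKM in SLCDS and at 15.1, 16.0 and 12.7 FPKM in control. ADAM28 stood at 2.00 to 2.28 FPKM in SLCDS and at 2.80, 2.71 and 1.74 FPKM in control. For all 3 genes control replicate 3 lay under the other controls, and without it ADAM12 (log2 fold change -0.29; limma, adjusted p = 0.00173), ADAM19 (-0.26; limma, adjusted p = 0.00402) and ADAM28 (-0.25; limma, adjusted p = 0.0357) were lower in SLCDS. Over all libraries their limma adjusted p values were 0.946, 0.381 and 0.762. ADAM15 stood at 24.6 to 25.4 FPKM in SLCDS and 23.9 to 30.4 FPKM in control, and ADAM8 at 1.58 to 1.97 FPKM in SLCDS and 1.93 to 2.75 FPKM in control, with limma adjusted p values of 0.865 and 0.264.

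ADAM11, ADAM22 and ADAM23 lack a working catalytic site and are best known in neurons, where ADAM22 and ADAM23 bind the secreted LGI proteins at synapses. ADAM23 stood at 4.22, 4.27 and 4.38 FPKM in SLCDS and at 3.70, 3.72 and 2.46 FPKM in control (log2 fold change 0.32, 95% interval 0.01 to 0.62; limma, adjusted p = 0.251). Its groups did not overlap. ADAM22 stood at 5.83, 6.16 and 5.88 FPKM in SLCDS and at 7.27, 6.75 and 3.01 FPKM in control (log2 fold change 0.13, 95% interval -0.48 to 0.74; limma, adjusted p = 0.843). It is the gene of the 32 with the widest departure of control replicate 3, and without that library ADAM22 was lower in SLCDS (log2 fold change -0.20; limma, adjusted p = 0.0373), while ADAM23 had a log2 fold change of 0.17 (limma, adjusted p = 0.0831). ADAM11 stood at 1.32 to 1.58 FPKM in SLCDS and 1.502 to 2.39 FPKM in control (limma, adjusted p = 0.362). ADAM32, known from testis, was just over the threshold at 0.911 to 1.09 FPKM in SLCDS and 0.924 to 1.02 FPKM in control (limma, adjusted p = 0.864). None of the 4 LGI genes reached the threshold; the highest LGI value was 0.766 FPKM in SLCDS and 0.937 FPKM in control, both of LGI4.

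**Figure D4:**
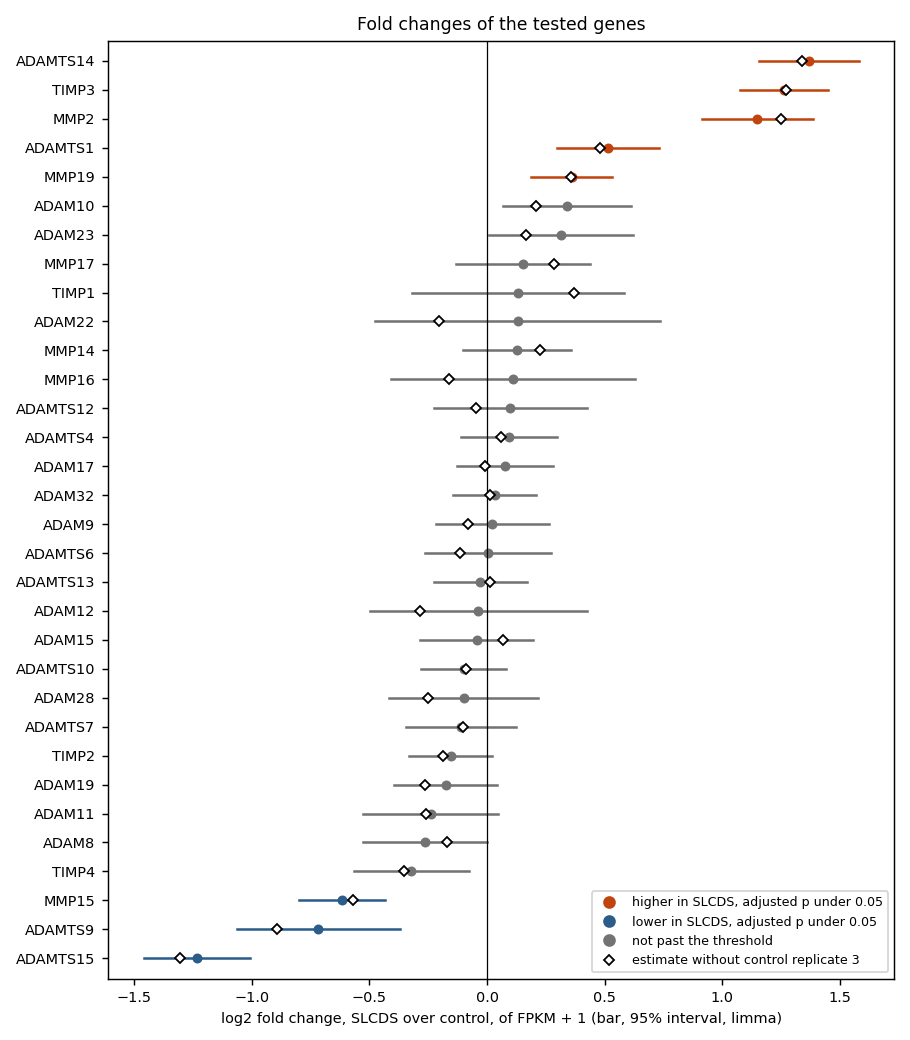
Log2 fold changes of FPKM + 1, SLCDS over control, of the 32 tested genes with 95% intervals from limma; red and blue mark genes past the threshold as higher and lower, grey the others, and open diamonds the estimate without control replicate 3. The diamonds of ADAM22, MMP16 and ADAM12 lie furthest to the left of their estimates from all libraries, and that of TIMP1 furthest to the right.

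The departure of control replicate 3 followed transcript length and GC content among these genes. For 18 of the 32 it lay under both other controls, for 9 above both and for 5 between them. Its difference from the mean of the other controls on the log2(FPKM + 1) scale had a Spearman correlation of -0.78 with the length of the longest coding transcript and of 0.80 with its GC content over the 32 genes, and of -0.73 and 0.55 over 11275 tested genes. These are descriptions over genes that share the same libraries, not tests. At the short end TIMP1 (1095 nucleotides) was higher by 0.71 in control replicate 3, and at the long end ADAM22 (9334 nucleotides) differed by -0.998 and MMP16 (11558 nucleotides) by -0.82. These are the extremes. Among long transcripts ADAM10 (11431 nucleotides) differed by -0.39 and ADAMTS4 (9773 nucleotides) by -0.099, and the short TIMP4 (1650 nucleotides) by -0.089. With the trend of each library with length and GC removed, an alternative added once the values were known, 5 of the 32 genes were higher and 4 lower, where 9.24% and 8.71% of 11275 genes were (18.0% in all). These were the 8 of the full comparison and ADAM19 (log2 fold change -0.25; limma, adjusted p = 0.0139).

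**Figure D5:**
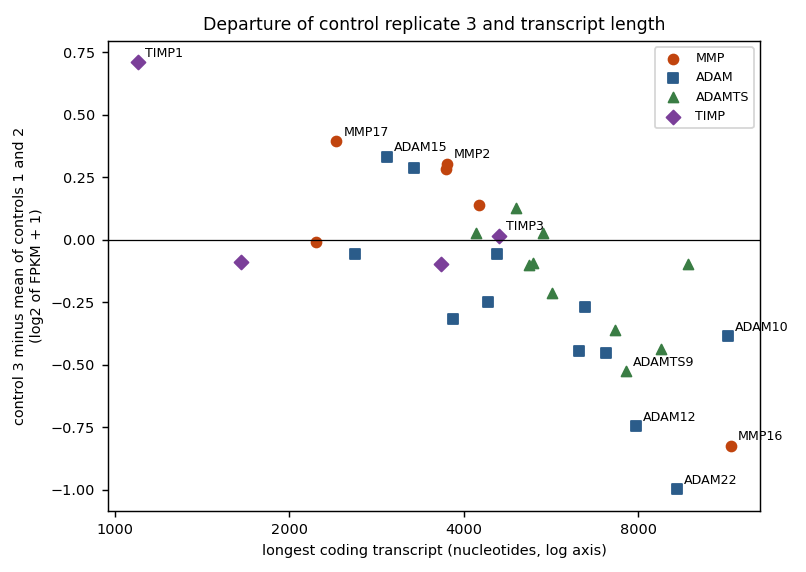
Difference of control replicate 3 from the mean of control replicates 1 and 2 (log2 of FPKM + 1, vertical axis) against the length of the longest coding transcript (nucleotides, log axis) for the 32 tested genes, by family. The shortest, TIMP1, lies at 0.71 and the lowest point, ADAM22, at -0.998.

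The remaining 26 genes were under the threshold. Just below it were MMP11, with 1.17 FPKM in control replicate 3 and 0.499 to 0.721 FPKM in the other libraries, ADAMTS3, ADAMTS16 (at most 0.986 FPKM), MMP28 (at most 0.967 FPKM) and MMP23B (at most 0.796 FPKM), which has a near-identical pseudogene copy. A further 8 genes peaked between 0.123 and 0.304 FPKM: MMP24, ADAM21, MMP8, MMP21, MMP13, MMP9, MMP25 and ADAMTS5. The other 13, ADAM20, ADAM7, ADAMTS18, MMP7, ADAMTS19, ADAMTS8, MMP10, MMP1, ADAMTS2, ADAMTS20, ADAM29, ADAM33 and ADAMTS17, stayed under 0.1 FPKM in every library. The collagenases MMP1, MMP8 and MMP13 were thus at or near 0 in both groups. Named after their values were seen, the membrane-type gene MMP24 stood at 0.194, 0.184 and 0.304 FPKM in SLCDS and 0.0935, 0.107 and 0.128 FPKM in control, and MMP21 at 0.155, 0.189 and 0.212 FPKM in SLCDS and 0, 0.0961 and 0 FPKM in control. The membrane-type gene MMP25 went the other way, at 0.0561, 0.0799 and 0.0770 FPKM in SLCDS and 0.0928, 0.151 and 0.134 FPKM in control. All of these stayed under the threshold for testing. In the annotation 18.1% of MMP24 exon bases lie opposite MMP24OS, and 35.2% of MMP25 exon bases lie opposite MMP25-AS1.

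Genes that act on these proteases or are cut by them were read from lists of 69 further genes, of which 46 were tested. In SLCDS 7 of them were higher and 1 lower, where 4.28% and 1.82% of all tested genes were, and the median log2 fold change was 0.06. The lists were chosen with earlier results of these data known, so the shares of all tested genes are no test of them. L1CAM and THSD4 among the 7 were tested only because of their SLCDS libraries, and without them 5 of 44 were higher and 1 lower. The 4.28% and 1.82% were not trimmed in this way, so they are not the matching shares for these 44. Without control replicate 3, 18 of the 46 were higher and 9 lower, where 16.0% and 11.8% of all tested genes were. Among 6 other tested inhibitors, the broad protease trap A2M alone rose, at 6.11, 6.90 and 6.68 FPKM in SLCDS and 1.73, 2.06 and 1.89 FPKM in control (log2 fold change 1.39; limma, adjusted p = 0.000402). Of 3 tested plasminogen activation genes 2 rose. They were the urokinase gene PLAU, with 37.4 to 41.7 FPKM in SLCDS and 13.0 to 17.4 FPKM in control, and its receptor gene PLAUR, with 7.66 to 8.17 FPKM in SLCDS and 4.56 to 5.03 FPKM in control. Urokinase makes plasmin, which can activate several MMP proforms. Of 3 tested procollagen processing genes the enhancer gene PCOLCE rose, at 8.34 to 9.28 FPKM in SLCDS and 4.76 to 6.67 FPKM in control (log2 fold change 0.58; limma, adjusted p = 0.0299). Of 4 tested ADAMTS-like genes THSD4 rose, at 1.33 to 1.53 FPKM in SLCDS and 0.475 to 0.653 FPKM in control (log2 fold change 0.61; limma, adjusted p = 0.00565).

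Partners and substrates of the sheddases were read in the same way. Of 9 tested partners of ADAM10 and ADAM17, the tetraspanin gene TSPAN5, which helps ADAM10 to the surface, was lower, at 11.8 to 12.9 FPKM in SLCDS and 15.0 to 16.2 FPKM in control (log2 fold change -0.32; limma, adjusted p = 0.0461), and none was higher. Of 5 tested shed ligand genes of the EGF family, TGFA was higher, at 4.73 to 4.95 FPKM in SLCDS and 3.09 to 3.38 FPKM in control (log2 fold change 0.46; limma, adjusted p = 0.0127). Of 9 other tested substrates, the adhesion gene L1CAM alone passed, at 5.14 to 5.81 FPKM in SLCDS and 0.396 to 0.673 FPKM in control (log2 fold change 2.04; limma, adjusted p = 0.000228). Among 3 tested proprotein convertase genes, which cut the proforms of ADAM, ADAMTS and membrane-type MMP proteases, FURIN stood at 29.6 to 32.6 FPKM in SLCDS and 25.2 to 27.7 FPKM in control (limma, adjusted p = 0.134) and PCSK7 at 12.9 to 14.9 FPKM in SLCDS and 13.7 to 14.1 FPKM in control (limma, adjusted p = 0.935). VCAN, the versican gene and the only lectican tested, stood at 8.21 to 10.1 FPKM in SLCDS and at 14.7, 13.7 and 7.31 FPKM in control (limma, adjusted p = 0.592; 0.000475 without control replicate 3, at a log2 fold change of -0.58). BSG, an MMP inducer, the uptake receptor gene LRP1 and CD63, a TIMP1 binding protein, did not pass, with limma adjusted p values of 0.878, 0.279 and 0.316.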

How the data were processed

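Per the labels' protocols, TRIzol was used to extract the RNA and a VAHTS Universal V6 kit to prepare the libraries. The authors deposited 1 file of FPKM values per library. No aligner, counter or strand setting is given in the sources used here, and the submitters' processing notes list mouse builds (GRCm38 and mm10) for these human cells.

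Groups came from the sample titles. SLCDS was compared with control on log2(FPKM + 1) with limma 3.58.1 (R 4.3.3), letting the variance prior depend on mean level. Tests were 2-sided and p-values were adjusted by Benjamini-Hochberg over the 11506 genes that reached 1 FPKM in no fewer than 3 libraries. The scale understates changes of low genes. Every tested gene of the families is named, and of each other list up to 4 genes past the threshold, otherwise the 2 most abundant. The members and lists were chosen with earlier results of these data known. Transcript lengths, overlaps and copies came from GENCODE 29, promoters from RefSeq. The 18 alternatives were pseudocounts, filters, scalings, variance priors, library weights, a replicate block, each library left out and, added later, a length and GC correction. The procedure was tested on simulated data. Their noise was drawn from the spread of the SLCDS libraries, with no library that stands apart. That test therefore does not cover the departure of control replicate 3. Python 3.11.15 was used for other steps.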

Additional observations from a re-analysis of the deposited data

How the results depend on the processing

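Whether the replicate numbers pair the libraries could not be told. Deviations of same-numbered libraries from their group means correlated at -0.326, 0.36 and 0.0652. Those of SLCDS replicate 2 correlated at 0.365 and 0.36 with control replicates 1 and 2 and at -0.406 with control replicate 3. The library that stands apart thus shapes these values, and they cannot decide on pairing. With the replicate block 3 family genes were higher and 2 lower, with limma adjusted p values of 0.0546 for ADAMTS1, 0.0971 for MMP19 and 0.0501 for ADAMTS9. Of all genes 346 were then higher and 109 lower. With library weights 9 family genes were higher and 8 lower, and of all genes 1845 were higher and 1432 lower. A mean FPKM of at least 5 left 1 family gene higher and 2 lower, and 196 higher and 128 lower of the 8394 genes then tested. MMP19, ADAMTS1, ADAMTS14 and TIMP3 were not tested in that setting, as their means lie under 5 FPKM. With the length and GC trend removed 1042 of 11275 genes were higher and 982 lower. Leaving out 1 library gave 3 to 9 family genes higher and 2 to 9 lower, and 210 to 1838 higher and 66 to 1353 lower of all genes, the highest counts each without control replicate 3. Some of these settings hold fewer genes or libraries, while library weights keep them all. The cause of the changes in count was not tested.

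Some log2 fold changes that did not pass over all libraries changed sign. With library weights they were 0.061 for ADAM15, -0.0025 for ADAM17, -0.18 for ADAM22, -0.075 for ADAM9, -0.021 for ADAMTS12, 0.011 for ADAMTS13, -0.12 for ADAMTS6 and -0.15 for MMP16. With the trend removed they were -0.018 for ADAM9, -0.013 for ADAMTS12, -0.018 for ADAMTS4, -0.10 for ADAMTS6 and -0.012 for MMP16. Leaving out 1 library they ranged from -0.29 to 0.091 for ADAM12, -0.10 to 0.066 for ADAM15, -0.0070 to 0.12 for ADAM17, -0.20 to 0.32 for ADAM22, -0.083 to 0.088 for ADAM9, -0.046 to 0.21 for ADAMTS12, -0.079 to 0.014 for ADAMTS13, -0.11 to 0.073 for ADAMTS6, -0.16 to 0.26 for MMP16 and -0.017 to 0.37 for TIMP1. ADAMTS9 was also lost with equal FPKM sums (limma, adjusted p = 0.117), upper quartile scaling (0.0637), no filter (0.0534) and a mean FPKM of at least 5 (0.0515). At an FPKM of 1, 32.6 to 34.4 fragments stand behind a value on a transcript of 2000 nucleotides, which limits the genes near the threshold.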
